A study of Mus musculus with 6 samples.

Results

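Cytokines of the interleukin 6 family signal through a shared receptor chain, gp130, and the transcription factor STAT3. The transcripts described here are 10 genes of that pathway: the cytokine genes Lif and Cntf, the receptor genes Il6st (which encodes gp130), Osmr, Lifr and Cntfr, the kinase genes Jak1 and Jak2, Stat3, and the feedback inhibitor gene Socs3. They were chosen by name, with earlier results of these data known. All 10 were found by Ensembl identifier among the 55335 genes of the deposited table. Of these, 9 passed the filter on low counts together with 17687 genes in all, and Cntf did not.

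RNA was recovered from retinas of C57BL/6 mice, labelled as wild type and 10 weeks old, by pulling down HA-tagged material with an antibody, to profile retinal ganglion cells. HA is a peptide tag, and the sources used here do not say which protein carried it or which promoter drove it. The groups were 3 naive libraries and 3 libraries of silicone oil-induced ocular hypertension (SOHU), a glaucoma model in which oil in the anterior chamber raises eye pressure, taken 1 week after the injection. The labels of the naive libraries repeat the treatment text of the oil injection, so the naive group rests on its title and condition label. Whether each library is a different mouse or a pool is not stated, so p-values measure only how these samples spread, and that spread may be technical.

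When a cytokine joins gp130 with a partner chain, the kinases JAK1 and JAK2 phosphorylate the receptor, STAT3 docks, and phosphorylated STAT3 enters the nucleus. LIF uses LIFR as partner, CNTF uses LIFR and the anchored chain CNTFR, and oncostatin M uses OSMR. Among the genes STAT3 induces is Socs3, whose product binds gp130 and JAK and ends the signal. In the injured mouse retina, Müller glia are known to respond through this pathway, and loss of Socs3 in ganglion cells is known to allow their axons to regrow.

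The libraries held 21691354 to 26824919 counted reads. Markers that rose or fell are those called by the test given below, which called 8.02% of all genes as higher and 5.93% as lower. Ganglion cell markers, 15 genes, made up 0.429 to 0.694% of the reads in naive and 0.203 to 0.3% in SOHU libraries, and 14 fell. The 13 markers of Müller glia and astrocytes made up 1.05 to 1.33% in naive and 1.85 to 3.28% in SOHU libraries, and 8 of 12 tested rose. Microglia and leukocyte markers were scarce, with 0.000816 to 0.00354% in naive and 0.00516 to 0.0135% in SOHU libraries, and 6 of 14 tested rose. Rod photoreceptor markers made up 0.469 to 0.566% in naive and 0.419 to 0.679% in SOHU libraries, and none of 10 passed. Amacrine and horizontal cell markers, 10 genes, were lower too, with 0.195 to 0.219% in naive and 0.103 to 0.152% in SOHU libraries, and 4 fell. Bipolar cell markers, 7 genes, made up 0.0679 to 0.0998% in naive and 0.0677 to 0.0937% in SOHU libraries, and 1 rose. Vascular markers are given further below. Markers of other retinal cell types were therefore read in every library. Here fewer cells of a type, less RNA per cell and a change in what the pull-down recovers cannot be told apart.

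Of the 9 pathway genes tested, 4 rose in SOHU libraries and none fell: Il6st, Osmr, Stat3 and Socs3. A gene was called at an adjusted p under 0.05 in the quasi-likelihood test of edgeR. Across all genes tested 13.9% were called, 8.02% as higher and 5.93% as lower. The log2 fold change, SOHU minus naive, had a median of 0.84 over the 9 genes, beside 0.014 over all genes. Levels below are read counts scaled to library size (CPM) after TMM normalization. In 5 of the 9 genes every SOHU library lay above every naive library, as in 19.3% of all genes tested, and in none did every SOHU library lie below, as in 19.7% of all genes tested. The plot of CPM by library shows which genes separated the groups.

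**Figure D1:**
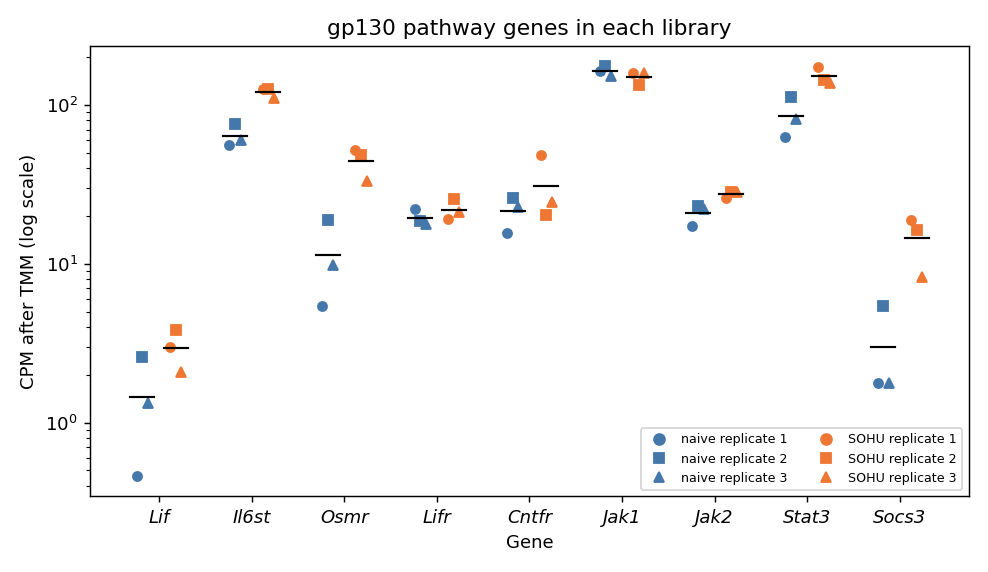
Levels of the 9 tested pathway genes in each library, as CPM after TMM scaling on a log axis, with naive libraries in blue, SOHU libraries in orange and black bars for group means. The groups are apart for Il6st, Osmr, Jak2, Stat3 and Socs3 and overlap for Lif, Lifr, Cntfr and Jak1.

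Levels of different genes were compared per kilobase of annotated exon, since longer transcripts give more reads. In naive libraries Jak1 was highest at 22.7 ± 1.52 CPM per kilobase (SD, n = 3), followed by Stat3 at 8.95 ± 2.58, Cntfr at 7.70 ± 1.93, Il6st at 5.76 ± 0.948, Jak2 at 4.14 ± 0.616 and Lifr at 1.81 ± 0.207. Socs3, at 1.03 ± 0.728 CPM per kilobase, Osmr, at 0.938 ± 0.569, and Lif, at 0.335 ± 0.245, were lowest among the tested genes. The library values of neighbours overlapped from Stat3 to Cntfr and Il6st, and from Lifr down to Lif, so the order within those runs was not resolved. In SOHU libraries the first 5 places by mean were the same, although neighbours overlapped from Stat3 to Cntfr and Il6st and from Jak2 to Socs3 and Osmr. There Socs3 (5.02 ± 1.93 CPM per kilobase) and Osmr (3.69 ± 0.815) stood above Lifr (2.03 ± 0.304). All 3 Osmr values then exceeded all 3 Lifr values. Among all genes tested, the mean level per kilobase of Socs3 moved from percentile 26.4 in naive to 56.6 in SOHU, and that of Osmr from 24.8 to 49.7, while Lifr stood at 36.2 and 37.2.

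Among the ligands, no change of Lif passed the test. Lif, mm10 chromosome 11, 4257557 to 4272514, plus strand, encodes leukemia inhibitory factor. It had 12, 60 and 30 reads in naive replicates 1 to 3 and 72, 85 and 51 in SOHU replicates 1 to 3. In CPM these were 0.462, 2.58 and 1.33 against 2.99, 3.81 and 2.07, so that naive replicate 2 lay above SOHU replicate 3. Its log2 fold change of 1.03 carried a wide 95% interval, from -0.15 to 2.20 (SE 0.53, edgeR adjusted p = 0.217). Leaving out 1 library moved it between 0.61, without naive replicate 1, and 1.73, without naive replicate 2, and in the latter case DESeq2 called Lif as higher.

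Cntf, mm10 chromosome 19, 12763660 to 12765632, minus strand, encodes ciliary neurotrophic factor and was nearly undetected. It had no read in any naive library and 5, 6 and 1 reads in SOHU replicates 1 to 3. Against a floor of 3 reads over the naive group, the 12 SOHU reads, taken as counted, correspond to a level 4.05-fold higher. That value allows for counting error in the naive group only, so it is not a lower bound. A limit on this gene comes from the annotation. Of its 1073 exon bases, 847 are also exon of another gene on the same strand, which is listed at 0 reads in every library, and how reads in shared bases were counted is not given in the sources used here.

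Among the other ligand genes of the family described here, Ctf1 rose. Ctf1, which encodes cardiotrophin 1, had 9.90, 14.3 and 13.3 CPM in naive and 43.5, 30.1 and 24.9 CPM in SOHU libraries. The groups did not overlap, and the log2 fold change was 1.40 (SE 0.24, edgeR adjusted p = 0.0119). Clcf1, which encodes a ligand of the CNTF receptor, had 2.76 ± 1.42 CPM in naive and 5.55 ± 1.503 CPM in SOHU libraries (SD, n = 3 each) and did not pass (log2 fold change 1.01, edgeR adjusted p = 0.123). Ebi3 and Il11 had log2 fold changes of 0.07 and 0.07 and did not pass. Il6 and Osm, the genes of interleukin 6 and oncostatin M, were below the filter, with 2 and 4 reads over the naive libraries and 5 and 3 over the SOHU libraries.

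The shared receptor chain rose. Il6st, mm10 chromosome 13, 112464070 to 112510086, plus strand, had 55.7, 75.8 and 60.3 CPM in naive libraries. SOHU libraries had 126.3, 126.0 and 111.0 CPM. The SOHU values lay close together and all above the naive values. The rise was 1.89-fold (log2 fold change 0.92, SE 0.15, 95% interval 0.59 to 1.26, edgeR adjusted p = 0.0119).

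Of the partner chains, Osmr rose and Lifr showed no detectable change. Osmr, mm10 chromosome 15, 6813577 to 6874969, minus strand, had 5.39, 18.9 and 9.77 CPM in naive and 51.8, 48.8 and 33.4 CPM in SOHU libraries. Its naive values were widely spread, yet the lowest SOHU library lay above the highest naive library. The rise was 3.94-fold (log2 fold change 1.98, SE 0.39, 95% interval 1.09 to 2.87, edgeR adjusted p = 0.0174). Lifr lies on the same chromosome, at 7090614 to 7197489 on the plus strand. It had 22.0, 18.7 and 17.8 CPM in naive and 19.1, 25.5 and 21.1 CPM in SOHU libraries, which overlap (log2 fold change 0.17, SE 0.17, 95% interval -0.22 to 0.55, edgeR adjusted p = 0.544).

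The balance of these partner chains was measured within each library, where no scaling between libraries enters. Osmr made up 17.9, 47.4 and 32.8% of the summed Osmr and Lifr level per kilobase in naive libraries. In SOHU libraries it made up 70.7, 63.0 and 58.4%. Per kilobase, Osmr was thus the minor transcript of the pair in every naive library and the major one in every SOHU library. In naive replicate 2 this rested on the division by exon length, since Osmr had 440 reads there and Lifr 435. The mean shares were 32.7 ± 14.7 and 64.0 ± 6.2% (SD, n = 3 each), a difference of 31.3 percentage points. An exact two-sided permutation test gave p = 0.1, the smallest value that 3 libraries against 3 allow.

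**Figure D2:**
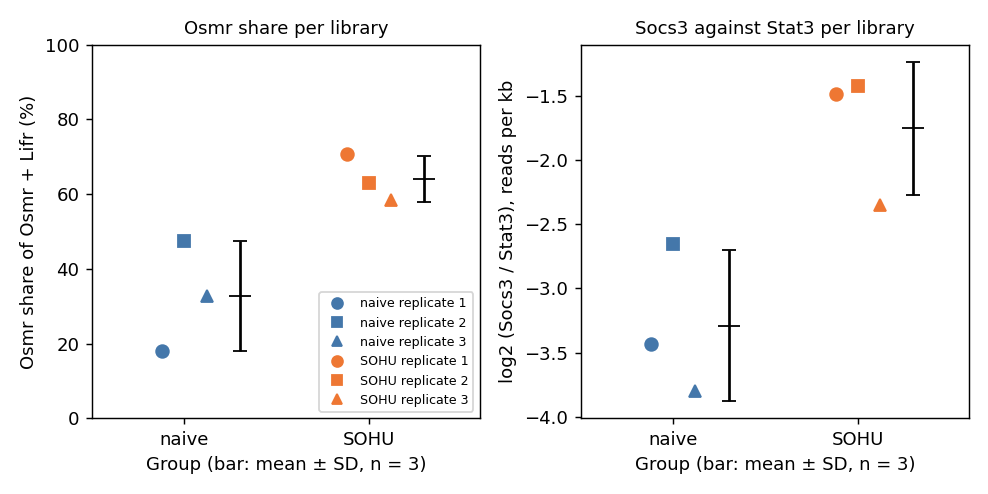
Balances measured within each library: on the left the share of Osmr in the summed Osmr and Lifr level per kilobase, in percent, and on the right the log2 ratio of Socs3 to Stat3 reads per kilobase. Points are libraries and black bars group means with SD (n = 3); the Osmr share is at most 47.4% in naive and at least 58.4% in SOHU libraries, and the groups are also apart on the right.

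Cntfr, mm10 chromosome 4, 41657498 to 41697089, minus strand, varied without separating the groups. Its values were 15.5, 26.0 and 22.7 CPM in naive and 48.4, 20.4 and 24.4 CPM in SOHU libraries. SOHU replicate 1 alone stood high, and without it the log2 fold change went from 0.54 (SE 0.32, edgeR adjusted p = 0.283) to 0.07 (adjusted p = 0.851). Of 3 other receptor genes, Il27ra was below the filter and Il6ra had under 1 CPM in every library (log2 fold change 0.36, edgeR adjusted p = 0.709). Il11ra1, the receptor gene for interleukin 11, rose from 58.7 ± 5.62 to 109.2 ± 23.8 CPM (SD, n = 3 each; log2 fold change 0.90, SE 0.18, edgeR adjusted p = 0.0161). It shares 8 exon bases with Ccl27a on the opposite strand.

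The kinase genes Jak1 and Jak2 did not pass. Jak1, mm10 chromosome 4, 101152367 to 101265282, minus strand, had 163.2, 175.1 and 153.2 CPM in naive and 158.4, 134.5 and 158.4 CPM in SOHU libraries. These values overlap, and the log2 fold change of -0.12 (95% interval -0.41 to 0.16, edgeR adjusted p = 0.549) did not pass. Jak2, mm10 chromosome 19, 29251828 to 29313080, plus strand, had 17.3, 23.0 and 22.2 CPM in naive and 26.0, 28.3 and 28.3 CPM in SOHU libraries. All SOHU values lay above all naive values, but the log2 fold change of 0.40 (SE 0.16) did not pass (edgeR adjusted p = 0.124).

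Stat3, mm10 chromosome 11, 100885098 to 100939540, minus strand, rose. Naive libraries had 63.1, 111.7 and 81.1 CPM and SOHU libraries 174.7, 144.2 and 138.6 CPM, with no overlap. The rise was 1.79-fold (log2 fold change 0.84, SE 0.20, 95% interval 0.38 to 1.29, edgeR adjusted p = 0.0280). Only 72 of its 9527 exon bases are shared with another gene, Stat5a on the opposite strand, at 3.78% of its level. Transcript levels do not report STAT3 phosphorylation, which was not measured here.

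Among the other JAK and STAT genes described here, Jak3 alone rose, from 2.95 ± 1.25 to 9.05 ± 4.54 CPM (SD, n = 3 each; log2 fold change 1.62, edgeR adjusted p = 0.0345). JAK3 is best known from lymphoid cells, and the share of leukocyte markers given above was also higher in every SOHU library; their part in the result was not tested. Stat2, a mediator of interferon signals, overlapped between the groups (32.3 ± 17.4 and 38.5 ± 13.02 CPM, SD, n = 3 each). Stat5b had 52.9, 53.9 and 49.1 CPM in naive and 31.9, 28.2 and 45.2 CPM in SOHU libraries, lower in all SOHU libraries, but its log2 fold change of -0.57 missed the threshold (edgeR adjusted p = 0.0665), while DESeq2 called it as lower.

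Socs3 had the largest fold change of the 9 genes, but its 95% interval overlapped that of Osmr, and the difference between these genes was not tested. Socs3, mm10 chromosome 11, 117966079 to 117970047, minus strand, had 46, 126 and 40 reads in naive and 456, 365 and 203 in SOHU libraries. In CPM these were 1.77, 5.41 and 1.77 against 19.0, 16.4 and 8.25, so that even the lowest SOHU library exceeded the highest naive one. The rise was 4.87-fold (log2 fold change 2.28, SE 0.47, 95% interval 1.24 to 3.33, edgeR adjusted p = 0.0175).

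Relative to Stat3 in the same library, Socs3 was higher in every SOHU library than in any naive one. Per kilobase, the log2 ratio of Socs3 to Stat3 reads was -3.43, -2.65 and -3.80 in naive libraries. In SOHU libraries it was -1.48, -1.42 and -2.35. The means were -3.29 ± 0.59 and -1.75 ± 0.52 (SD, n = 3 each), a difference of 1.54, with p = 0.1 in the exact two-sided permutation test, the smallest this design allows. Naive replicate 2 and SOHU replicate 3 were the nearest libraries of the opposite groups.

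None of 15 other inhibitor genes passed in edgeR or DESeq2, namely 6 SOCS genes, Cish, 4 PIAS genes and 4 phosphatase genes. Of all genes tested in edgeR, 8.02% passed as higher and 5.93% as lower. Only 1 of the 15, Ptpn1, had an unadjusted p under 0.05 in edgeR, beside 16.4% of all genes as higher and 14.8% as lower. The median log2 fold change of the 15 inhibitor genes was 0.11. Socs1, the closest relative of Socs3 in function, had 3.12, 8.08 and 4.60 CPM in naive and 4.16, 12.8 and 7.601 CPM in SOHU libraries, with overlap (log2 fold change 0.64, edgeR adjusted p = 0.353). Those with the highest CPM, not divided by length, were Ptpn11, which encodes the phosphatase SHP2 that docks at the same gp130 site as SOCS3 (log2 fold change 0.11, edgeR adjusted p = 0.581), Pias1 (-0.02, adjusted p = 0.958) and Ptpn1 (0.29, adjusted p = 0.157). Whether Socs3 differed from each of these in its change was not tested.

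**Figure D3:**
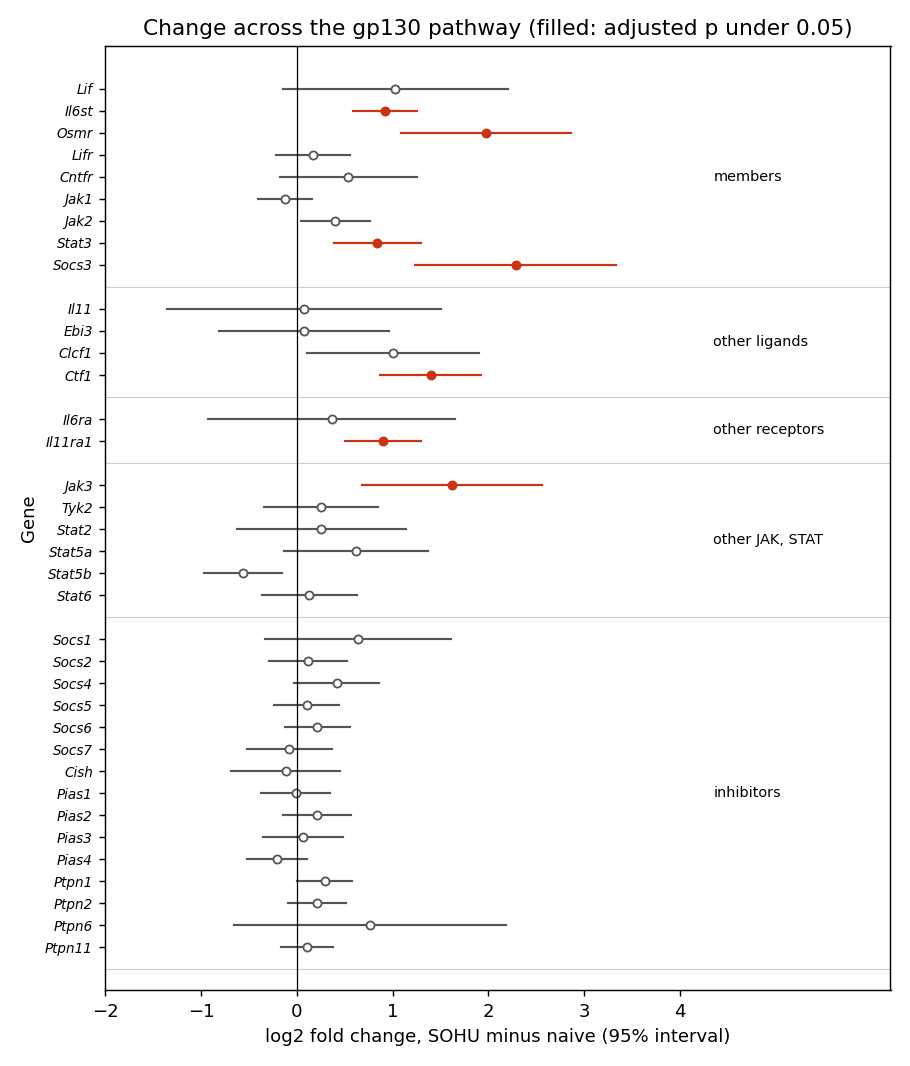
Log2 fold change, SOHU minus naive, with its 95% interval for the 9 tested pathway genes and for other ligand, receptor, JAK, STAT and inhibitor genes. Filled red points passed the threshold: 4 of the pathway genes, Ctf1, Il11ra1 and Jak3, and none of the 15 inhibitors.

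Promoter sequences of the called genes are shown because STAT3 binds spaced palindromes that can be looked for in them. The sequences are from RefSeq on GRCm38.p6, the assembly of mm10. The motif TTCNNNGAA has 3 free bases between TTC and GAA, and a longer form has 4. Each reads the same on both strands, and both forms cannot start at the same base. They were searched in the 250 bases before each annotated start. At least 1 promoter held TTCNNNGAA in 8.13% and the longer form in 6.76% of 27025 genes. Of the 10 pathway genes, Socs3 alone held a match, TTCNNNGAA once, starting 154 bases before the RefSeq start, a start that lies inside the gene's span given above. Below, capitals mark that match, and only the longest stretch of each window outside exons of GENCODE release M21 is printed. The window of Osmr lay wholly in annotated exon and is not printed. The stretches are, for Socs3, chr11:117969452-117969616, minus strand, for Stat3, chr11:100939541-100939790, minus strand, and for Il6st, chr13:112463820-112464069, plus strand.
Socs3: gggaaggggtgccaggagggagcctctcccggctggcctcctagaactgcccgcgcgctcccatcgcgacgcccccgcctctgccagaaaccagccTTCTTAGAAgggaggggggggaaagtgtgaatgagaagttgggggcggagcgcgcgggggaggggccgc
Stat3: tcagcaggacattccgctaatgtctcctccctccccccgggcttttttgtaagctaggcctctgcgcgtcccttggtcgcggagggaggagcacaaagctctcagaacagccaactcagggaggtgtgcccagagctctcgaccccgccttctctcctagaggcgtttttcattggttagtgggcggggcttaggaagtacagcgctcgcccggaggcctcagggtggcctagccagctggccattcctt
Il6st: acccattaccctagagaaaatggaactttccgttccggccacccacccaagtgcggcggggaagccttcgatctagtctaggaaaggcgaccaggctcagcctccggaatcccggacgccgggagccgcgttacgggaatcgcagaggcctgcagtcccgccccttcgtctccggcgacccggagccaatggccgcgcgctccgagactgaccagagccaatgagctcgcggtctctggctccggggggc
The Stat3 and Il6st stretches held neither spacing, which says only that these letters are not in these windows. No binding was measured here.

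Genes known to be induced by STAT3 were then read as a list of 35, of which 33 were tested. The list was chosen with earlier results of these data known, so its counts are a description and not a test. In it 10 rose and none fell, beside 8.02% and 5.93% of all genes tested. DESeq2 called 16 as higher and none as lower, beside 12.4% of all its genes as higher. At an unadjusted p under 0.05 in edgeR, 18 were higher and 2 lower, beside 16.4% and 14.8% of all genes. The list had a median log2 fold change of 0.83, beside 0.014 over all genes and 1.09 over the 12 tested Müller glia and astrocyte markers. Those that rose were Gfap, Mt1, Mt2, Serpina3n, Cebpb, Cebpd, Sbno2, Mcl1, Ccnd1 and Sprr1a. SOHU libraries lay above all naive libraries in 17 of the 33 genes and below in 2, beside 19.3% and 19.7% of all genes.

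Gfap, the filament gene of astrocytes and reactive Müller glia, had 68.1, 166.8 and 112.5 CPM in naive and 746.7, 513.3 and 348.5 CPM in SOHU libraries, a 4.63-fold rise (edgeR adjusted p = 0.0125). Mt1, a metallothionein gene, had 308.7, 430.2 and 384.9 CPM in naive and 1180, 1309 and 1009 CPM in SOHU libraries (log2 fold change 1.64, SE 0.17, edgeR adjusted p = 0.00762). Mt2 went from 11.3 ± 6.30 to 63.0 ± 22.7 CPM (SD, n = 3 each; log2 fold change 2.48), though 432 of its exon bases are shared with a weakly read opposite-strand gene. Serpina3n, a secreted protease inhibitor and marker of reactive astrocytes, rose 2.84-fold. Among transcription factors, Cebpd rose 3.55-fold and Cebpb 2.70-fold. The values of Cebpb and Ccnd1 are uncertain, since 312 and 1100 of their exon bases are shared with Tmem189 and LTO1 on the opposite strand, and strand use is not stated. Sbno2, a STAT3-induced repressor of inflammatory genes, rose 2.34-fold, the survival gene Mcl1 1.71-fold, the cyclin gene Ccnd1 1.86-fold and the axon injury gene Sprr1a 4.45-fold from 0.826 ± 0.480 CPM.

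Matches to the motifs in this list are shown for the called genes only. TTCNNNGAA lay in a promoter window of 5 of the 29 listed genes found in RefSeq's promoter table (17.2%) and the longer form in 3 (10.3%), given without a test. The other listed genes with a match, Bcl6, Icam1, Steap4, Zfp36, Hif1a and Lcn2, were not called. Among the called genes matches lay in Gfap, at chr11:102897296-102897325 on the minus strand, and Sbno2, at chr10:80101193-80101221 on the minus strand. Another match, before a different start of Sbno2, reached into annotated exon and is not printed. Capitals mark the match.
Gfap: caggctggtgTTCCCAAGAAagccttgact
Sbno2: ccggctctgcTTCCCGGAAtgcctgtgag
The Gfap match has the longer spacer and starts 115 bases before a RefSeq start that lies inside the span the files give for the gene, not before its outermost start. The same holds for the printed Sbno2 match, which starts 24 bases before a RefSeq start inside the gene's span, 80056992 to 80105571.

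Other genes of the list did not pass, some of them with a wide spread within groups. Lcn2, the lipocalin gene of reactive glia and acute inflammation, had 9.24, 432.8 and 93.3 CPM in naive and 56.0, 656.7 and 318.4 CPM in SOHU libraries (log2 fold change 0.95, SE 1.52, edgeR adjusted p = 0.723). Timp1 had 1.23, 34.1 and 4.55 CPM in naive and 35.9, 165.6 and 34.1 CPM in SOHU libraries (adjusted p = 0.298), and Steap4 behaved alike, with 1.69, 35.3 and 8.36 CPM against 30.8, 127.7 and 34.9 CPM (adjusted p = 0.325). In each of these 3 genes, chosen after their values were seen, replicate 2 was the highest library of its group. Ifitm3 also overlapped between groups (355.6 ± 233.2 and 633.7 ± 229.8 CPM, SD, n = 3 each), and Hif1a did not pass either (log2 fold change -0.11, edgeR adjusted p = 0.590).

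**Figure D4:**
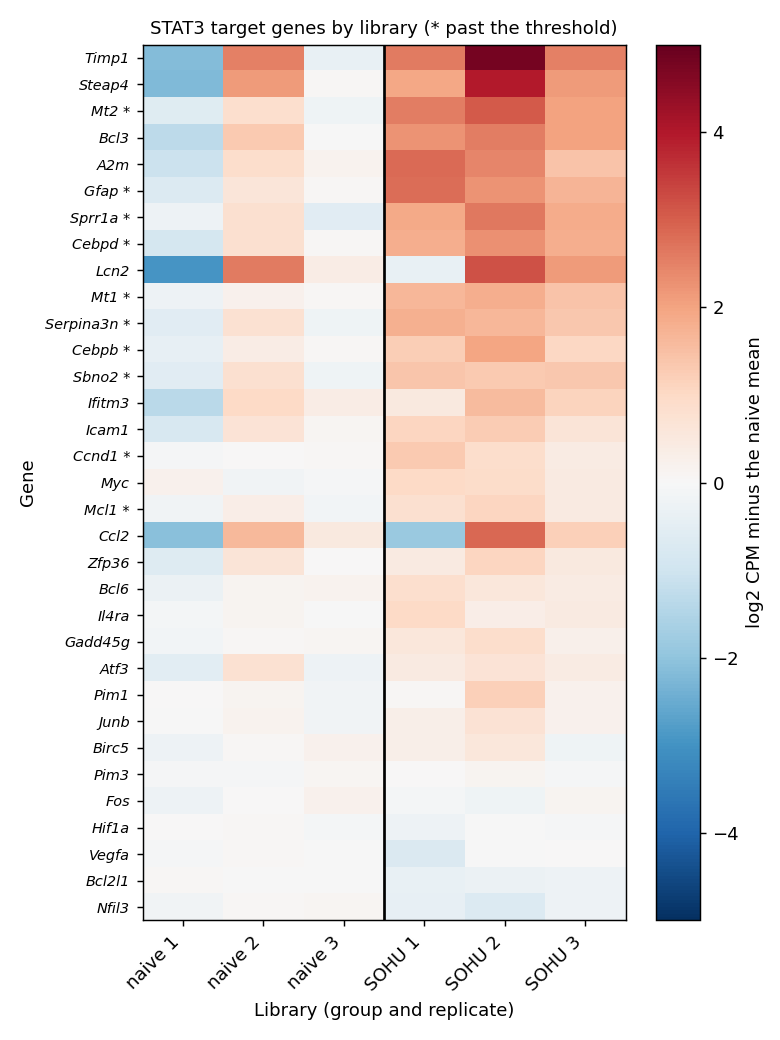
Log2 CPM minus the naive mean for the 33 tested STAT3 target genes (rows, ordered by mean difference) in each of the 6 libraries, with red above and blue below the naive mean. The 10 genes with an asterisk passed the threshold; Lcn2 spans -2.95 to 2.58 within the naive group.

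The naive libraries differed among themselves in these genes too. Naive replicate 2 was the highest of its group in 8 of the 9 tested pathway genes, and naive replicate 1 the lowest in 6. Osmr and Socs3 in naive replicate 2, at 18.9 and 5.41 CPM, were nearest to the SOHU range. That library also had the largest share of glial markers among the naive libraries, 1.33%, and of leukocyte markers, 0.00354%. Its shares of vascular, bipolar, and amacrine and horizontal cell markers were the largest of that group too. Its share of ganglion cell markers, 0.429%, was the smallest, and that of rod markers, 0.471%, lay between the others. The part of these in the result was not tested.

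How the changes stood against those of the cell type markers depended on the gene. Across the 12 tested Müller glia and astrocyte markers the median log2 fold change came to 1.09, beside 0.92 for Il6st, 0.84 for Stat3, 1.98 for Osmr and 2.28 for Socs3. When the libraries were scaled to the summed reads of those markers, the median of all genes moved to -0.98. In that scaling Il6st (log2 fold change -0.08, edgeR adjusted p = 0.848) and Stat3 (-0.16, adjusted p = 0.677) were no longer called. Osmr (0.97, adjusted p = 0.0261) and Socs3 (1.22, adjusted p = 0.0158) were still called as higher, and Jak1 (-1.11) and Lifr (-0.82) were called as lower. Of all genes, 0.351% were called as higher and 56.4% as lower in that scaling. Apoe gave 38.9 to 57.3% of the reads of that list, so the scaling leans on it. Scaled to the ganglion cell markers, where the median of all genes was 1.19, all 9 genes were called as higher, as were 72.9% of all genes, with Jak1 at 1.04 below that median and Osmr and Socs3 at 3.06 and 3.41 above it. Vascular markers made up 0.0349 to 0.0411% of the reads in naive and 0.0776 to 0.101% in SOHU libraries. Of 7 tested, 6 had a positive log2 fold change, with a median of 1.14. Kdr, Flt1 and Pdgfrb were called as higher, beside 8.02% of all genes. The endothelial genes Cdh5 and Pecam1 had 0 to 2 and 3 to 13 reads per library. The part of vascular cells in the result was not tested.

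**Figure D5:**
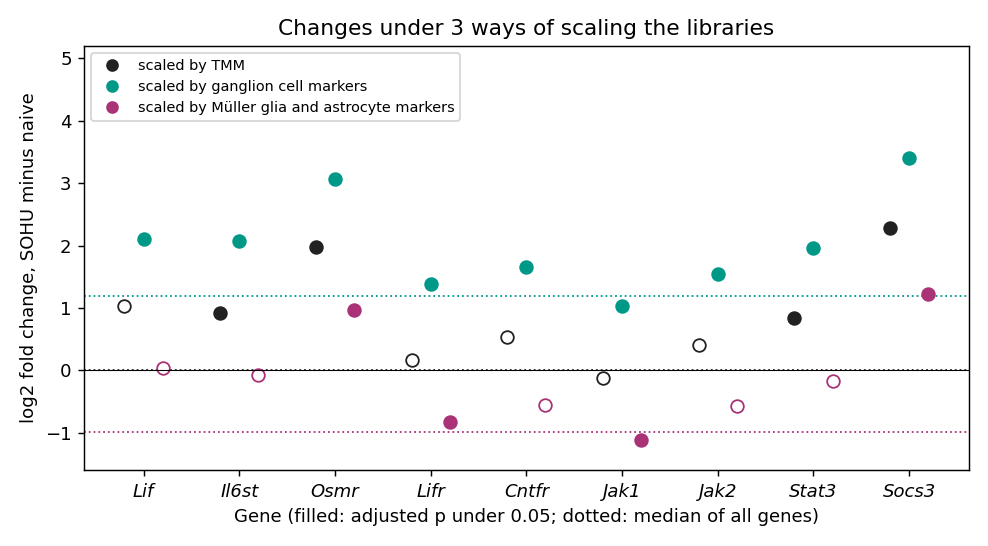
Log2 fold change, SOHU minus naive, of the 9 tested pathway genes with libraries scaled by TMM (black), to ganglion cell markers (green) and to Müller glia and astrocyte markers (purple). Filled points passed an adjusted p under 0.05 and dotted lines are the medians of all genes; Osmr and Socs3 are the genes called as higher in all 3.

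In edgeR the calls depended on which libraries were kept. All 4 genes passed without naive replicate 2 (adjusted p 0.0237 to 0.0299) and without SOHU replicate 3 (0.00449 to 0.0209). Without naive replicate 1, naive replicate 3 or SOHU replicate 2, none of the 4 genes passed. The adjusted p-values were 0.0669 to 0.109 without naive replicate 1, 0.0616 to 0.110 without naive replicate 3 and 0.0501 to 0.0764 without SOHU replicate 2. Without SOHU replicate 1, Il6st alone passed. Across all 6 omissions the log2 fold changes stayed between 0.85 and 1.06 for Il6st, 1.65 and 2.56 for Osmr, 0.68 and 1.08 for Stat3 and 2.02 and 3.03 for Socs3, and DESeq2 called all 4 genes in each.

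Finally, the genes whose log2 CPM followed each of 3 called genes most closely over the 6 libraries were listed from 10451 genes whose mean log2 CPM reached 3, by Pearson's r and with no test. For Socs3 these were Gca, Pros1, Sept9, Tnfrsf12a and Tgm2 (r from 0.993 to 0.998). For Osmr they were Yes1, Itpr2, Adgrv1, Vwa5a and Twf1 (0.996 to 0.998). For Stat3 they were Ptpn13, Grn, Zmynd15, Plscr2 and Rnase4 (0.994 to 0.998). Of these 15 genes, 11 were themselves called as higher, for example Pros1, from 34.0 to 98.8 CPM, and Tnfrsf12a, from 41.9 to 112 CPM. Likeness over 6 libraries in 2 groups itself picks genes that differ between the groups, and all share the scaling of each library, so nothing is read from that count. Among the pathway genes themselves, r was 0.989 for Osmr and Stat3 and 0.976 for Il6st and Socs3, but 0.26 for Osmr and Lifr.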

How the data were processed

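Raw counts of reads per gene were deposited as single files and as 1 table, whose 6 columns equalled the files. The submitters' processing notes name featureCounts, HISAT2, HISAT, Trim Galore, MultiQC, bcl2fastq 2.17 and build mm10; settings and strand use are not given there. Symbols were matched by Ensembl identifier for 55154 of 55335 genes, and coordinates are those of the files. Libraries were grouped by title.

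Genes were filtered with filterByExpr, scaled by TMM and tested across all 17687 genes kept with edgeR 4.0.16 in R 4.3.3 (robust quasi-likelihood test, Benjamini-Hochberg adjustment); the fit was tested on simulated data. DESeq2 1.42.0, limma 3.58.1 (voom), other scalings and filters and left-out libraries were the alternatives. Log2 CPM used a prior count of 2. The common biological coefficient of variation was 22.3%. Pairs of libraries within a group differed beyond counting noise (chi-square per degree of freedom 13.8 to 87.9). Members, lists and tests were chosen with earlier results of these data known. Named genes are the 10 members, each list gene past the threshold, the 3 most abundant others of each list, and the 5 genes most like Socs3, Stat3 and Osmr; Lif family genes below the filter, Socs1, Timp1, Steap4 and the marker genes were named after their values were seen. A few genes that this rule takes are not reported here. The fold change of Cntf against a floor of reads covers counting error in the naive group only.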

Additional observations from a re-analysis of the deposited data

How the results depend on the processing

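The 4 calls of Il6st, Osmr, Stat3 and Socs3 were also made with RLE or upper quartile scaling, a filter of 1 CPM in 3 libraries, limma-voom and DESeq2. Genes past the threshold numbered 2467 in all, 12891 when scaled to the ganglion cell markers, 10043 when scaled to the glial markers and 3775 in DESeq2. Of the 9 genes tested, those called as higher numbered 4, against 9 and 2 in those scalings (2 were called as lower in the glial one) and 2 with no low count filter, where Osmr (adjusted p = 0.134) and Socs3 (0.0962) missed the threshold; the cause was not tested. Of the 62 other pathway genes tested, targets included, edgeR called 14 as higher and 0 as lower, beside 8.02% and 5.93% of all genes. The STAT3 target list, chosen with earlier results known, gave 10 of the 14. DESeq2 called 20 as higher, 16 of them in that list, and 1 as lower, beside 2024 and 1751 of its 16313 genes. Before adjustment, edgeR gave 5506 of all genes a p under 0.05. In the ganglion cell scaling 53 of the 62 were higher, beside 72.9% of all genes. In the glial scaling 4 were higher and 17 lower, beside 0.351% and 56.4% of all genes. With no filter 12 of the other pathway genes were higher and 1 lower, among 1682 higher and 1675 lower of all genes. Scaled to the glial markers, the log2 fold changes of Il6st, Lifr, Cntfr, Jak2 and Stat3 reversed to -0.077, -0.82, -0.55, -0.57 and -0.16, and that of Jak1 became 1.04 when scaled to the ganglion cell markers; these follow the shift of all genes.

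Leaving out 1 library gave 0 to 3891 genes in edgeR, 0 to 4 of the 9 genes called as higher (4 to 5 in DESeq2, added after seeing the data), 0 lower, and 0 to 17 higher and 0 to 1 lower of the other pathway genes. At 0 calls, 3834 and 4176 genes had an unadjusted p under 0.05 without naive replicate 1 and 3, and DESeq2 called 1792 and 2286. The Osmr share differed by 23.9 to 38.7 percentage points and the Socs3 to Stat3 ratio by 1.29 to 1.87. Labels do not say that replicate numbers pair the samples, and same-numbered libraries correlated at 0.163, 0.251 and 0.004 in their deviations, with 2 of 3 libraries in each group correlating best with their own number. With the replicate block, 2070 genes, the same 4 genes and 19 of the other pathway genes were called.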
